A study of Mus musculus with 9 samples.

Results

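The 10 genes described here encode 7 Toll-like receptors (Tlr2, Tlr3, Tlr4, Tlr7, Tlr8, Tlr9 and Tlr13), the chaperone Unc93b1, the adaptor Myd88 and the kinase Irak4. They were taken by symbol from the gene list of the deposited matrices, and all 10 of 10 were present among 32285 genes. They were followed through single-nucleus RNA sequencing of whole hearts from wild-type male mice aged 9 to 10 weeks, in 9 libraries of 3 groups with 3 libraries each. NS-Sham mice had the chest opened without coronary occlusion and received normal saline (NS). NS-I/R mice had the left anterior descending coronary artery occluded for 45 min and reperfused for 24 h (ischemia and reperfusion, I/R), with saline. Enpa-I/R mice had the same injury and received enpatoran (Enpa), named in the labels for its action on TLR7 and known to block TLR8 as well, at 5 mg/kg in each of 2 intraperitoneal injections. The first injection came 1 h before ischemia, and the sources used here disagree on whether the second followed 2 h later or directly after ischemia. No group received enpatoran without the injury, so every enpatoran value is from an injured heart. The labels name no animal, so p-values measure the spread between these libraries, which may be technical.

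Toll-like receptors recognise molecules of microbes or of damaged cells. TLR2 and TLR4 act at the cell surface, TLR2 on lipoproteins and TLR4 on lipopolysaccharide, whereas TLR3 (double-stranded RNA), TLR7 and TLR8 (single-stranded RNA), TLR9 (DNA) and TLR13 (bacterial ribosomal RNA) act in endosomes. UNC93B1 carries the endosomal receptors from the endoplasmic reticulum to endosomes. All the receptors listed except TLR3 signal through MYD88, which recruits IRAK4 to a complex that activates NF-kB, and TLR3 uses the adaptor TRIF, encoded by Ticam1. In the heart, macrophages live among the muscle cells in health, and neutrophils and monocytes enter after an infarct.

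Cell classes were named from fixed marker genes, and neither the members nor the pathway genes used below took part in the clustering. The libraries held 19651794 to 38970153 unique molecular identifiers (UMIs, each standing for 1 captured RNA molecule), and 41979 of 56766 barcodes were kept as nuclei, 3160 to 6471 per library. A total of 425 barcodes occurred in more than 1 library. In 8 classes every library had at least 25 nuclei. Macrophage-like nuclei numbered 824 in NS-Sham hearts, 1400 after NS-I/R and 1140 after Enpa-I/R. Their 8 markers, Csf1r, Adgre1, Mrc1, F13a1, Cd163, C1qa, Cd68 and Mertk, all had UMIs in each group. Neutrophil-like nuclei numbered 5, 1366 and 322, so this class was compared between the injured groups only. A cluster of 431 nuclei led by heat-shock genes, 2.74% of NS-I/R nuclei and 0.0747% of Enpa-I/R nuclei, fitted no class and was left unnamed. Levels per library are given as CPM, the count of a gene per 1000000 UMIs of the class, scaled with edgeR's TMM factors.

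The members differed in how much signal stood behind them. Tlr4 had 63295 UMIs in the nuclei kept, followed by Unc93b1 with 5045, Irak4 with 3354, Myd88 with 1637, Tlr3 with 1592 and Tlr7 with 1533. Tlr13 had 958, Tlr8 817 and Tlr2 677. Tlr9 had 7 UMIs in all 9 libraries, 4 of them in macrophage-like nuclei, and was below the count filter in every class. At this depth no level of Tlr9 could be compared. In the GENCODE M21 annotation of GRCm38, used here for positions only and matched by gene ID, Tlr4 lies on chromosome 4, 66827584 to 66930284 (plus strand), and Unc93b1 on chromosome 19, 3935186 to 3949340 (plus strand). Tlr7 (chromosome X, 167304929 to 167330558) and Tlr8 (chromosome X, 167242696 to 167264329) are neighbours on the minus strand, and Tlr13 lies elsewhere on the same chromosome (106143204 to 106160493, plus strand). Tlr2 is on chromosome 3, 83836272 to 83841767 (minus strand), Tlr3 on chromosome 8, 45395665 to 45411080 (minus strand), and Tlr9 on chromosome 9, 106222598 to 106226883 (plus strand). Myd88 (chromosome 9, 119335934 to 119341411, minus strand) overlaps Slc22a14 on the same strand and Acaa1a on the other, and Irak4 (chromosome 15, 94543643 to 94581815, plus strand) overlaps Twf1. Counts of Myd88 and Irak4 are therefore less certain. Tlr3 overlaps Gm45542 on the other strand, which had 7 UMIs.

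RefSeq promoter entries (GRCm38.p6) were found for 7 of the 10 members, and not for Tlr4, Tlr7 or Unc93b1. The 250 bases before each start were searched on both strands for an NF-kB site, for an interferon-response core (GAAA, any 2 bases, GAAA) and for the PU.1 core GAGGAA, the core of the element bound by the myeloid factor PU.1. They are shown here because Tlr2, Tlr13, Tlr8 and Myd88 differed in where they were found and how they moved. Only the bases outside annotated exons are printed, 5′ to 3′ on the gene's strand, and capitals mark the matches.
Tlr2, chr3:83841768-83841858: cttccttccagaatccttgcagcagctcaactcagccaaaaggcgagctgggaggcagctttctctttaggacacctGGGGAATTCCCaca
Tlr13, chrX:106143025-106143203: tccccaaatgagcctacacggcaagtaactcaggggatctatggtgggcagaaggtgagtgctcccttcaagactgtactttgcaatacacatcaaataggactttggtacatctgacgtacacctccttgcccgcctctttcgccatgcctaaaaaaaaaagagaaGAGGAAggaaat
Tlr8, chrX:167264330-167264579: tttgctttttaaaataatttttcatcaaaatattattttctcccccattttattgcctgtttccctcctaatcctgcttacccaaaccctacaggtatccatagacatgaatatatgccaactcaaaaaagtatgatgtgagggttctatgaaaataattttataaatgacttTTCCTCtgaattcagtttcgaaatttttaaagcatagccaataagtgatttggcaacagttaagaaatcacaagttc
Myd88, chr9:119340042-119340268: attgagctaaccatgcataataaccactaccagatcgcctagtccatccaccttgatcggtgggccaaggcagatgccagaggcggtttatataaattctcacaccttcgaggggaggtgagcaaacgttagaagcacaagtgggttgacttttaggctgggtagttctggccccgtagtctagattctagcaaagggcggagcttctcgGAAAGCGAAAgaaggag
The capitals in Tlr2 are 2 overlapping NF-kB matches, 173 to 163 bases before the RefSeq start. Tlr3 has 1 such match 211 to 202 bases before its RefSeq start, but that window lies inside the annotated gene and its 5′ end is in an exon. NF-kB matches occurred in 9.55% of 32851 promoters searched the same way. The capitals in Tlr13 and, on the opposite strand, in Tlr8 are PU.1 cores, 83 to 78 and 77 to 72 bases before the start. Tlr9 also has a PU.1 core, which 23.3% of all promoters hold. The capitals in Myd88 are an interferon-response core 40 to 31 bases before the start, held by 2.98% of promoters. Irak4 had no match to these letters in its window. A match is a description of the letters and not a measured binding site.

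Among the 8 classes with enough nuclei in every library, Tlr2, Tlr7, Tlr8 and Tlr13 were highest in macrophage-like nuclei. Averaged over the 9 libraries without TMM scaling, Tlr7 stood at 152 ± 47.3 CPM (SD, n = 9) in macrophage-like nuclei and at 1.43 ± 0.845 CPM in endothelial-like nuclei, the next of the 8 classes. Tlr8 stood at 88.4 CPM in macrophage-like nuclei and at 0.601 CPM in the next class, Tlr13 at 50.9 against 1.79 CPM, and Tlr2 at 35.5 against 2.74 CPM. For each of these 4 receptors the macrophage-like level was above that of the next class in 9 of 9 libraries. Neutrophil-like nuclei are outside this order, and in each of the 6 injured libraries they had a higher Tlr13 level than macrophage-like nuclei. In NS-I/R and Enpa-I/R they held 22.5% and 9.72% of the Tlr2 UMIs and 7.95% and 2.10% of the Tlr7 UMIs, from 8.85% and 2.69% of nuclei. Macrophage-like nuclei held 49.2% and 53.5% of the Tlr2 UMIs and 78.7% and 90.1% of the Tlr7 UMIs, from 9.11% and 8.82% of nuclei. Among the 8 classes Unc93b1 was also highest in macrophage-like nuclei, at 300.5 CPM against 36.3 CPM in pericyte-like nuclei. This again held in 9 of 9 libraries, but Unc93b1 was read in every class. B-like nuclei, too few for this order, had pooled Unc93b1 levels of 259 CPM in NS-Sham, 238 CPM after NS-I/R and 296 CPM after Enpa-I/R. They also held Tlr7, with 2.31%, 2.12% and 1.39% of its UMIs in the same order, from 0.752%, 0.582% and 0.480% of nuclei. Endothelial-like nuclei held 1.84%, 2.16% and 2.02% of the Tlr7 UMIs, from 30.3%, 22.4% and 28.5% of nuclei. After macrophage-like nuclei the order of the classes for Tlr2, Tlr7, Tlr8 and Tlr13 rested on levels of a few CPM or less.

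**Figure D1:**
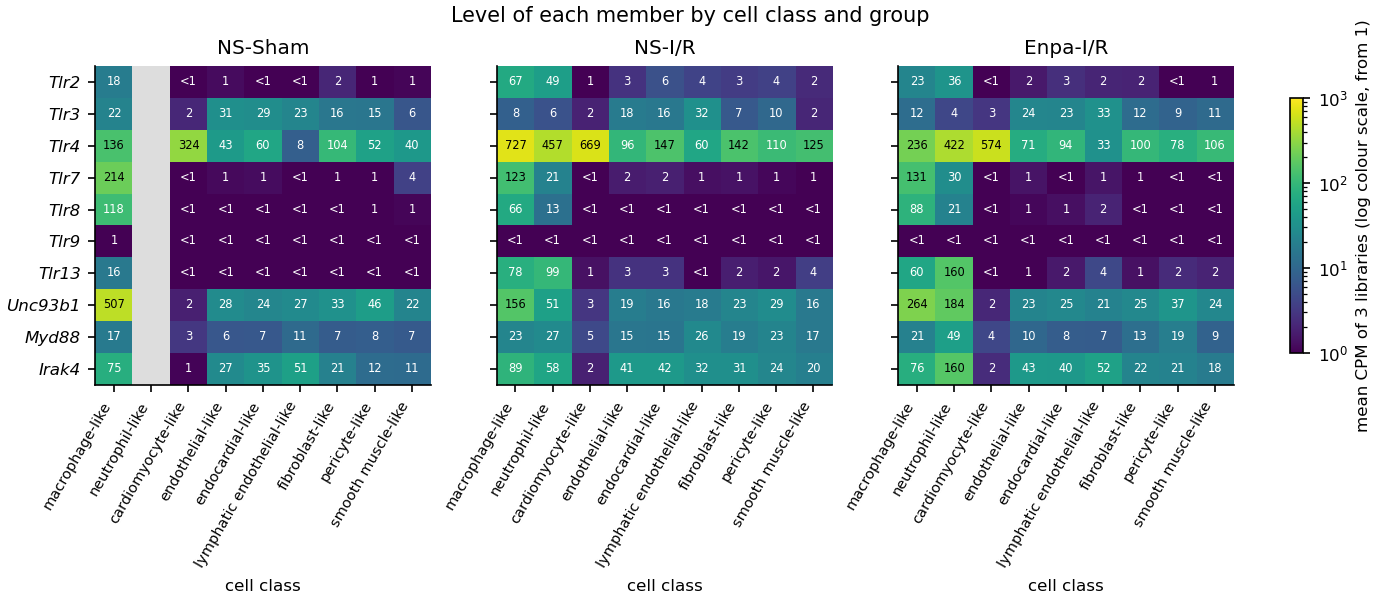
Mean CPM of 3 libraries for each of the 10 members (rows) in 9 cell classes (columns), 1 panel per group, on a log colour scale with the mean printed in each cell. Grey marks neutrophil-like nuclei in NS-Sham, which were too few to show. Tlr7 and Tlr8 are highest in the macrophage-like column of every panel, Tlr13 is high in the macrophage-like and neutrophil-like columns of the injured groups, and Tlr4 is high in the cardiomyocyte-like column of every panel.

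Tlr3 and Tlr4 had another distribution. Tlr4 was highest in cardiomyocyte-like nuclei, at 521 CPM against 362 CPM in macrophage-like nuclei and 115 CPM in fibroblast-like nuclei, and the cardiomyocyte-like level was above the macrophage-like level in 7 of 9 libraries. The exceptions were NS-I/R replicates 1 and 2, and the NS-I/R means were 720 CPM in macrophage-like and 674 CPM in cardiomyocyte-like nuclei. Tlr3 was highest in the endothelial classes, at 26.4 CPM in lymphatic endothelial-like, 23.8 CPM in endothelial-like and 21.7 CPM in endocardial-like nuclei, against 13.6 CPM in macrophage-like nuclei. Lymphatic endothelial-like nuclei were above endothelial-like nuclei for Tlr3 in 5 of 9 libraries, so these neighbours did not separate. In NS-Sham the order was another one, with 29.7 CPM in endothelial-like, 27.2 CPM in endocardial-like, 20.7 CPM in macrophage-like and 20.0 CPM in lymphatic endothelial-like nuclei. Irak4 was 78.9 CPM in macrophage-like nuclei and 40.1 CPM in lymphatic endothelial-like nuclei, higher in 8 of 9 libraries. Myd88 was spread over the classes, at 19.9 CPM in macrophage-like and 16.5 CPM in pericyte-like nuclei, higher in 4 of 9 libraries.

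Each library supplied all 8 classes, so the macrophage-like level was set against each other class within libraries, by an exact two-sided sign-flip permutation test of log2(CPM + 1) over 9 libraries. Over 10 members and 7 other classes, 55 of 70 pairs were higher in macrophage-like nuclei and 2 were lower at a Benjamini-Hochberg adjusted p under 0.05, so that 81.4% of the pairs passed. This test was run on the members only. No share over all genes can be set beside these counts, and they do not set the members apart from other genes. The smallest p this design allows is 0.00391 (adjusted 0.00536), and Tlr7, Tlr8, Tlr13, Tlr2 and Unc93b1 reached it against endothelial-like and cardiomyocyte-like nuclei. The 2 lower pairs were Tlr3 against endothelial-like nuclei (mean log2 difference -0.91, higher in macrophage-like nuclei in 0 of 9 libraries, adjusted p 0.00536 in the exact permutation test) and Tlr4 against cardiomyocyte-like nuclei (-0.89, higher in 2 of 9 libraries, adjusted p 0.0203 in the exact permutation test). Of the 13 pairs that did not pass, 7 belonged to Tlr9, 4 to Tlr3 and 2 to Myd88.

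The share of nuclei with at least 1 UMI was taken after thinning each nucleus to 1000 UMIs. A Tlr7 UMI was then found in 14.2 ± 4.42% of macrophage-like nuclei in NS-Sham (SD, n = 3), 9.51 ± 1.63% after NS-I/R and 11.2 ± 0.954% after Enpa-I/R. In endothelial-like nuclei, which are not known for Tlr7, the shares were 0.0979%, 0.0711% and 0.118%. Before thinning, the macrophage-like shares were 29.1%, 18.8% and 22.6%, at median depths of 2116, 2066 and 2340 UMIs, and the endothelial-like shares were 0.233%, 0.321% and 0.216%, at 1708, 1611 and 1640 UMIs. Thinning left out 103 of the NS-Sham, 190 of the NS-I/R and 111 of the Enpa-I/R macrophage-like nuclei as too shallow. In the thinned nuclei, Tlr7 and Tlr8 were found together in 15 of 721 NS-Sham, 9 of 1210 NS-I/R and 8 of 1029 Enpa-I/R macrophage-like nuclei. None of the 3 differences in the Tlr7 share passed an exact two-sided permutation test over libraries, in which 3 against 3 cannot go below p = 0.1.

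After the injury the surface receptor genes Tlr2 and Tlr4 and the endosomal Tlr13 rose in macrophage-like nuclei, while Tlr7, Tlr8, Tlr3 and the chaperone gene Unc93b1 fell. Comparing NS-I/R with NS-Sham, 9 members passed the count filter, 3 of them rose and 4 fell at an edgeR adjusted p under 0.05, in a comparison that called 34.7% of all 10426 genes tested. Myd88 and Irak4 did not pass. The make-up of the class changed as well. It held 2 clusters, both with F13a1 and Mrc1 among their leading genes, named by the mean log2 scores of 2 marker lists. The resident list was Lyve1, Timd4, Folr2, Cbr2, Gas6, Cd163, F13a1 and Mrc1. The infiltrating list was Ccr2, Chil3, Ly6c2, Plac8, Arg1, Thbs1, Fn1 and Vcan. The resident-like cluster, with Cd163 also among its leading genes, scored 4.28 on the resident and 0.64 on the infiltrating list. It made up 94.5% of the class in NS-Sham hearts, 48.4% after NS-I/R and 62.5% after Enpa-I/R. The infiltrating-like cluster, with Arg1 and Tgfbi among its leading genes, scored 2.04 and 4.32 and held the rest. Summed levels of the 6 neutrophil markers in macrophage-like nuclei also moved: 4 of 6 had UMIs in NS-Sham (S100a8 and Retnlg were at 0) with sums of 61.5 to 89.5 CPM, and all 6 had UMIs in NS-I/R, at 225 to 723 CPM, and in Enpa-I/R, at 188 to 221 CPM. Their part in the changes was not tested.

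Tlr4, the lipopolysaccharide receptor, was at 155, 135 and 119 CPM in the 3 NS-Sham libraries, at 923, 963 and 295 CPM in NS-I/R and at 254, 219 and 235 CPM in Enpa-I/R. The groups did not overlap, although NS-I/R replicate 3 stood close to the enpatoran libraries. The log2 fold change of NS-I/R over NS-Sham was 2.40 ± 0.33 (SE, edgeR adjusted p 5.16e-05), and that of Enpa-I/R over NS-I/R was -1.62 ± 0.30 (edgeR adjusted p 0.00624). NS-I/R replicate 3, the library with the lowest Tlr4 of its group, had the highest neutrophil marker sum in macrophage-like nuclei, 723 CPM against 297 and 225 CPM, and the largest infiltrating-like share, 58.3% against 47.2% and 48.2%. Without that library the 2 differences were 2.78 and -1.99. Enpa-I/R was not called different from NS-Sham (log2 fold change 0.78 ± 0.33, edgeR adjusted p 0.12).

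Tlr2, the lipoprotein receptor, was at 18.1, 14.8 and 21.2 CPM in NS-Sham, at 102, 59.3 and 39.9 CPM in NS-I/R and at 16.6, 26.4 and 26.0 CPM in Enpa-I/R. All 3 saline-treated injured libraries were above all others, and the enpatoran libraries overlapped the sham libraries. The rise with injury was 1.94 ± 0.37 in log2 (edgeR adjusted p 0.000814) and the fall under enpatoran -1.54 ± 0.32 (edgeR adjusted p 0.0112). That fall lost its call without NS-I/R replicate 1 (-1.10, edgeR adjusted p 0.0728) or without Enpa-I/R replicate 1 (-1.35, edgeR adjusted p 0.0685).

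Tlr13, the bacterial RNA sensor, was at 18.1, 19.8 and 10.6 CPM in NS-Sham, at 84.0, 78.4 and 72.7 CPM in NS-I/R and at 61.9, 62.8 and 54.2 CPM in Enpa-I/R. It rose by 2.17 ± 0.24 in log2 in NS-I/R (edgeR adjusted p 6.43e-06) and was also higher than sham in Enpa-I/R, by 1.79 ± 0.24 (edgeR adjusted p 0.000147). The injured groups did not overlap each other, but the difference between them was not called (-0.39 ± 0.18, edgeR adjusted p 0.235).

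**Figure D2:**
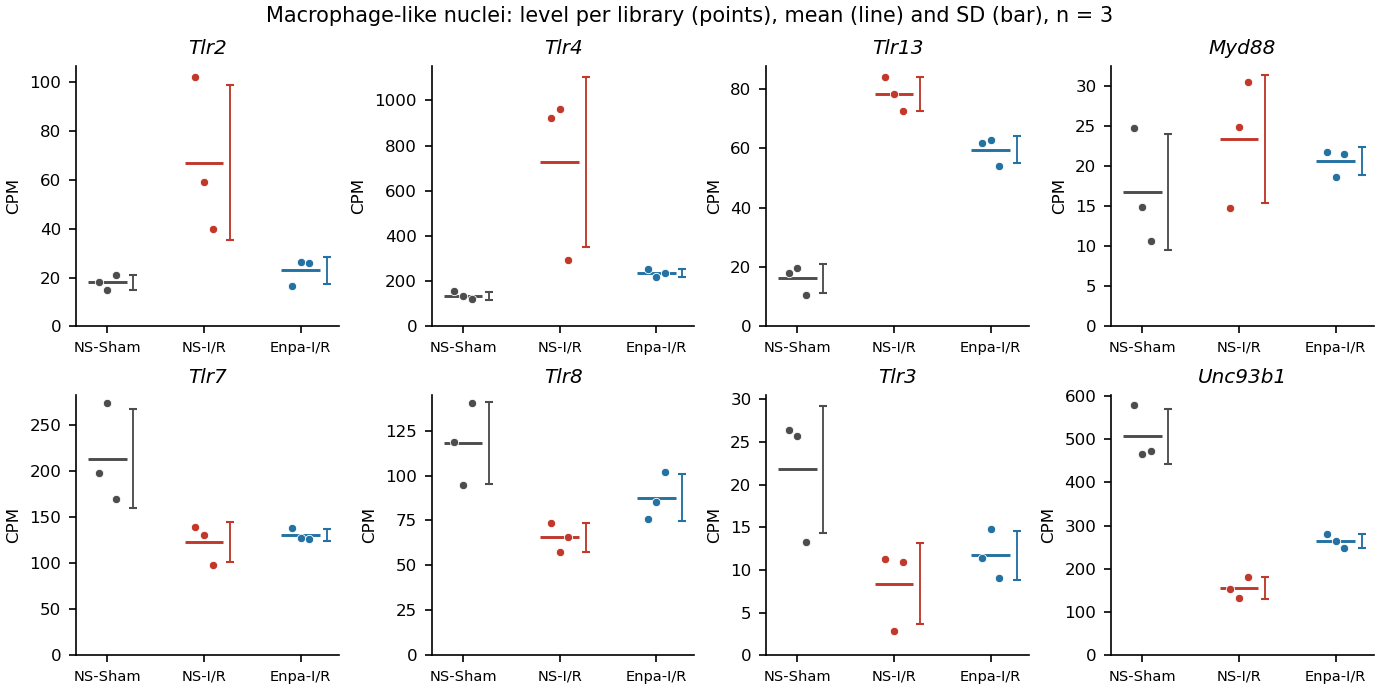
CPM in macrophage-like nuclei of 8 members, with 1 point per library, a line at the mean of 3 libraries and a bar for the SD, each panel starting at 0. Tlr2, Tlr4 and Tlr13 are higher in NS-I/R than in NS-Sham, Tlr7, Tlr8, Tlr3 and Unc93b1 are lower, and NS-I/R replicate 3 is the low point of Tlr4 at 295 CPM.

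Unc93b1, the chaperone that the endosomal receptors need, was at 580, 466 and 474 CPM in NS-Sham, at 153, 132 and 182 CPM in NS-I/R and at 280, 264 and 247 CPM in Enpa-I/R. The 3 groups were fully apart, with the enpatoran libraries between sham and saline-treated injury. The fall with injury was -1.70 ± 0.16 in log2 (edgeR adjusted p 1.27e-06). Enpa-I/R was higher than NS-I/R by 0.76 ± 0.16 (edgeR adjusted p 0.011) and lower than NS-Sham (-0.94 ± 0.15, edgeR adjusted p 0.000651). The call between the injured groups was lost without NS-I/R replicate 1 or 2 (0.74 and 0.65) and without Enpa-I/R replicate 1 or 2 (0.71 and 0.76), at edgeR adjusted p values of 0.0521 to 0.0623.

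Tlr7, whose product enpatoran blocks, was at 198, 274 and 169 CPM in NS-Sham, at 139, 131 and 98.5 CPM in NS-I/R and at 139, 127 and 127 CPM in Enpa-I/R. All sham libraries were above all injured libraries, and the injured groups overlapped. NS-I/R was lower than NS-Sham by a log2 fold change of -0.83 ± 0.19 (edgeR adjusted p 0.00357), and so was Enpa-I/R (-0.73 ± 0.19, edgeR adjusted p 0.0145). Between the injured groups the difference was 0.09 ± 0.19 (edgeR adjusted p 0.828), and its sign turned without NS-I/R replicate 3 (-0.04). The fall in Enpa-I/R lost its call without NS-Sham replicate 2 (-0.49, edgeR adjusted p 0.13) and without Enpa-I/R replicate 2 or 3 (-0.71 and -0.69, edgeR adjusted p 0.0601 and 0.0575).

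Tlr8, its neighbour on chromosome X, was at 119, 94.99 and 140 CPM in NS-Sham, at 73.6, 57.4 and 65.7 CPM in NS-I/R and at 75.8, 85.3 and 102 CPM in Enpa-I/R. The enpatoran libraries lay between the other groups and overlapped the sham libraries. The fall with injury was -0.81 ± 0.20 in log2 (edgeR adjusted p 0.0049), and the difference between the injured groups was 0.41 ± 0.19 (edgeR adjusted p 0.227).

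Tlr3, the double-stranded RNA sensor, was at 26.4, 25.7 and 13.2 CPM in NS-Sham, at 11.3, 2.87 and 10.9 CPM in NS-I/R and at 11.3, 14.7 and 9.04 CPM in Enpa-I/R. The sham and saline-treated injured libraries did not overlap, with 13.2 and 11.3 CPM as the nearest values. Its difference of -1.41 ± 0.44 in log2 (edgeR adjusted p 0.0222) lost its call without NS-Sham replicate 1 or 2 (-1.30 and -1.27) or NS-I/R replicate 2 (-1.02), at edgeR adjusted p values of 0.0724 to 0.107. The 45 NS-Sham nuclei of the infiltrating-like cluster held 20 of the 47 Tlr3 UMIs, in 6 nuclei, and all 6 also had a UMI of a dendritic cell marker. The 723 nuclei of that cluster in NS-I/R held 5 Tlr3 UMIs, and the resident-like cluster held 27 in 779 nuclei of NS-Sham and 25 in 677 of NS-I/R. The 6 dendritic markers (Flt3, Xcr1, Clec9a, Cd209a, Zbtb46, Siglech) summed to 842 CPM in those 45 nuclei, with Siglech at 0, against 90.0 CPM in the resident-like cluster of NS-Sham and 62.3 and 141 CPM in the infiltrating-like cluster of NS-I/R and Enpa-I/R. In the resident-like cluster alone the difference was 0.07 ± 0.51 (edgeR adjusted p 0.944). The part of these nuclei in the fall was not tested.

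Myd88 and Irak4, which every MYD88-dependent receptor shares, overlapped between groups in macrophage-like nuclei. Myd88 was at 24.7, 14.8 and 10.6 CPM in NS-Sham, at 14.7, 24.9 and 30.5 CPM in NS-I/R and at 21.8, 18.6 and 21.5 CPM in Enpa-I/R, with overlap of all groups. Irak4 was at 64.3, 60.4 and 101 CPM in NS-Sham, at 98.8, 95.6 and 73.5 CPM in NS-I/R and at 61.9, 83.8 and 83.6 CPM in Enpa-I/R. Neither was called in any of the 3 comparisons, the log2 difference of NS-I/R from NS-Sham being 0.45 ± 0.36 for Myd88 (edgeR adjusted p 0.354) and 0.31 ± 0.22 for Irak4 (edgeR adjusted p 0.311).

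Between the injured groups, 1 member rose (Unc93b1) and 2 fell (Tlr4 and Tlr2) under enpatoran in macrophage-like nuclei, where 6.12% of all genes were called. Without NS-I/R replicate 1 or Enpa-I/R replicate 1, 1 of the 3 calls was left. Between Enpa-I/R and NS-Sham, 1 member was higher (Tlr13) and 2 were lower (Unc93b1 and Tlr7), where 17.4% of all genes were called. The comparisons share libraries, so these counts are not independent of each other.

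The 2 macrophage clusters differed in the receptors they held. Within the 6 injured libraries, Tlr7 was lower in the infiltrating-like than in the resident-like cluster, with a log2 difference of -1.51 ± 0.18 (edgeR adjusted p 2.91e-06), at means of 52.8 against 200 CPM in NS-I/R and 81.2 against 169 CPM in Enpa-I/R. Unc93b1 (-0.55 ± 0.12, edgeR adjusted p 0.00207) and Tlr8 (-0.53 ± 0.16, edgeR adjusted p 0.0206) were also lower in the infiltrating-like cluster. Tlr2 (1.23 ± 0.28), Tlr4 (0.88 ± 0.13) and Myd88 (1.00 ± 0.32) were higher there (edgeR adjusted p 0.00258, 5.37e-05 and 0.0274). Tlr13 and Irak4 were not called, so 6 of the 8 members tested differed, in a comparison that called 29.8% of genes.

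Within the resident-like cluster alone, 3 members were called between NS-I/R and NS-Sham, where 23.1% of genes were called. Tlr4 rose from 169, 144 and 134 CPM to 521, 663 and 232 CPM (1.66 ± 0.27, edgeR adjusted p 0.000437), and Tlr13 rose from 17.2, 20.5 and 8.94 to 97.7, 68.9 and 48.2 CPM (2.08 ± 0.34, edgeR adjusted p 0.000407). Unc93b1 fell from 625, 498 and 501 to 181, 145 and 270 CPM (-1.45 ± 0.21, edgeR adjusted p 0.000126). In these 3 genes the resident-like nuclei thus moved in the same direction as the whole class. Tlr7 stood at 218, 286 and 191 CPM in NS-Sham and at 228, 201 and 172 CPM in NS-I/R in this cluster, with overlap and no call (-0.23 ± 0.18, edgeR adjusted p 0.394). Tlr8 (-0.57 ± 0.24, edgeR adjusted p 0.0956) and Tlr2 (1.10 ± 0.50, edgeR adjusted p 0.123) were not called either.

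In Enpa-I/R against NS-Sham the resident-like cluster had 2 calls, Tlr13 (1.61 ± 0.35, edgeR adjusted p 0.0081) and Unc93b1 (-0.83 ± 0.20, edgeR adjusted p 0.0155), where 8.48% of genes were called. Against NS-I/R it had 1 call, Tlr4, which was lower in Enpa-I/R at 192, 208 and 182 CPM (-1.28 ± 0.26, edgeR adjusted p 0.023), where 2.04% of genes were called. Tlr2 (-1.36 ± 0.49, edgeR adjusted p 0.15) and Unc93b1 (0.63 ± 0.21, edgeR adjusted p 0.121) did not pass there, at differences near those of the whole class. In the infiltrating-like cluster Tlr4 was at 1432, 1346 and 351 CPM in NS-I/R and at 380, 255 and 342 CPM in Enpa-I/R, with overlap through NS-I/R replicate 3. Its difference there was -1.68 ± 0.40 (edgeR adjusted p 0.0635), that of Tlr2 was -1.39 ± 0.43 (edgeR adjusted p 0.123), that of Unc93b1 was 0.76 ± 0.18 (edgeR adjusted p 0.0625), and 0 of 8 members were called among a background of 1.29%. At an unadjusted p under 0.05, 4 of those 8 members were below the threshold (Tlr2, Tlr4, Unc93b1 and Tlr7). No share of all genes at that threshold is given here, and the 1.29% does not apply to it.

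**Figure D3:**
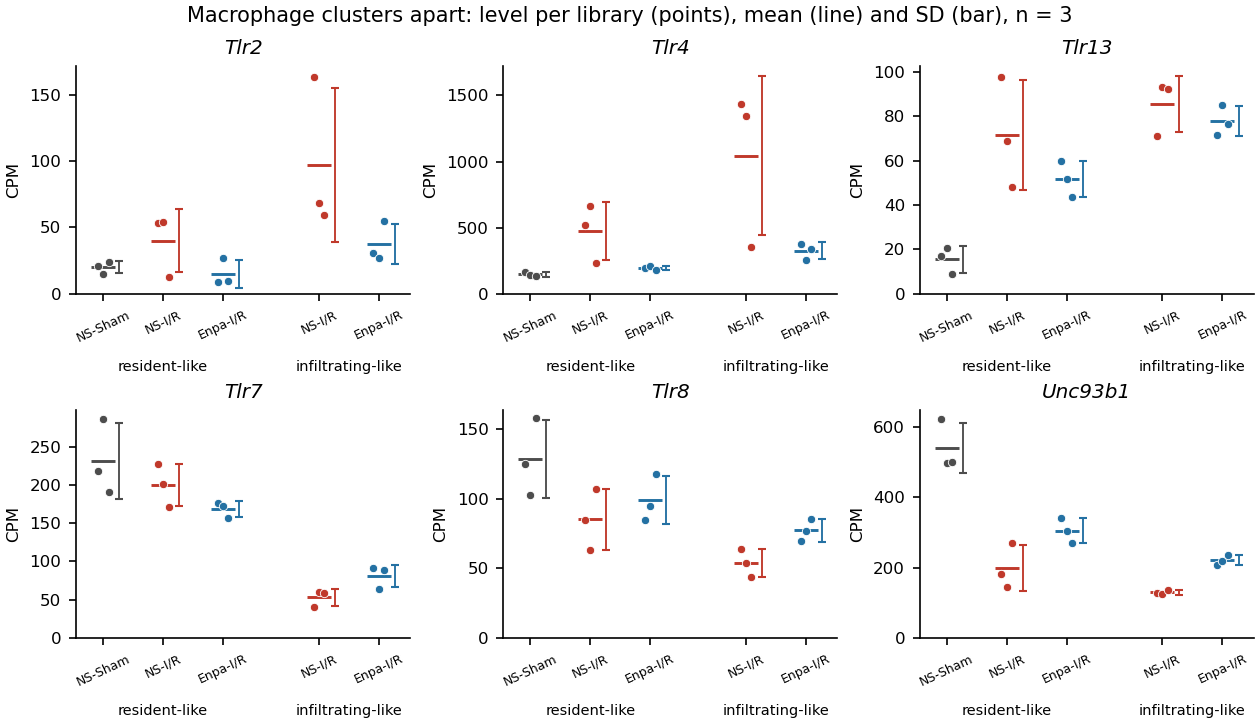
CPM of 6 members in the resident-like and infiltrating-like macrophage clusters, with 1 point per library, a line at the mean of 3 libraries and a bar for the SD. The 45 infiltrating-like nuclei of NS-Sham are not drawn. Tlr7 is higher in the resident-like cluster in both injured groups, and Unc93b1 is lower in the injured groups within the resident-like cluster.

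Neutrophil-like nuclei, present in the injured hearts, held Tlr4, Tlr13 and Tlr2. After thinning, a Tlr2 UMI was found in 3.88% of them in NS-I/R and in 3.81% in Enpa-I/R. In macrophage-like nuclei these shares were 4.97% and 2.10%, and the 2 classes were not tested against each other. Tlr13 was at 91.8, 119 and 85.6 CPM in NS-I/R and at 145, 131 and 203 CPM in Enpa-I/R, and Tlr4 at 530, 496 and 343 CPM and at 509, 462 and 295 CPM. Tlr13 did not overlap between these groups and Tlr4 did, and neither was called (0.63 ± 0.30, edgeR adjusted p 0.281, and -0.07 ± 0.27, edgeR adjusted p 0.922). Tlr7 averaged 21.3 CPM in NS-I/R and Tlr8 12.7 CPM, both below the count filter. Unc93b1 was at 27.2, 35.0 and 91.6 CPM in NS-I/R and at 116, 214 and 221 CPM in Enpa-I/R (1.74 ± 0.44), and Irak4 at 47.6, 44.7 and 82.1 CPM and at 116, 161 and 203 CPM (1.36 ± 0.35). The Unc93b1 and Irak4 libraries did not overlap, and neither passed the threshold (edgeR adjusted p 0.0577 for each). Of the 6 members tested, 0 were called in edgeR, where 2.34% of 6532 genes were called. At an unadjusted p under 0.05 there were 2 members, a threshold met by 1226 of the 6532 genes.

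Cardiomyocyte-like nuclei were the main source of Tlr4 and showed its rise as well. They held 84.8 ± 1.92% of all Tlr4 UMIs in NS-Sham hearts, 75.4 ± 3.45% after NS-I/R and 84.9 ± 3.56% after Enpa-I/R (SD, n = 3), whereas macrophage-like nuclei held 2.11%, 8.45% and 3.71%. Tlr4 was at 337, 329 and 307 CPM in NS-Sham, at 749, 611 and 648 CPM in NS-I/R and at 566, 539 and 616 CPM in Enpa-I/R. All injured libraries were above all sham libraries, and the injured groups overlapped. Tlr4 was higher than sham by 1.04 ± 0.12 in NS-I/R (edgeR adjusted p 0.000149) and by 0.82 ± 0.12 in Enpa-I/R (edgeR adjusted p 0.00182), and the difference between the injured groups was -0.22 ± 0.12 (edgeR adjusted p 0.209). Different clusters held most cardiomyocyte-like nuclei in sham (1985 nuclei of a cluster led by Mhrt and Kcnd2) and in NS-I/R (1322 nuclei of a cluster led by Xirp2, and 1191 of a cluster led by Ryr2 and Rbm20). Tlr4 was the only 1 of 5 members called in this class in NS-I/R against NS-Sham, where 45.3% of genes were called. Between the injured groups 0 were called by edgeR (18.9%), and 0 also had an unadjusted p under 0.05, which 5092 of 13983 genes had. In Enpa-I/R against NS-Sham, Tlr4 and Irak4 were called (18.3%), Irak4 at 2.39 against 1.06 CPM. The Irak4 call was lost in 8 of the 9 fits that left out 1 library, all except that without NS-I/R replicate 3 (edgeR adjusted p up to 0.141). It was also lost with DESeq2, without the count filter, with a mitochondrial limit of 2%, with at least 1000 genes per nucleus and with doublets kept (0.68 to 1.19).

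Tlr4 rose in the vessel and mural classes too. In endothelial-like nuclei it was at 39.0, 52.5 and 38.4 CPM in NS-Sham, at 94.2, 93.2 and 101 CPM in NS-I/R and at 75.8, 75.9 and 62.1 CPM in Enpa-I/R, 3 groups that did not overlap. The rise with injury was 1.13 ± 0.15 in log2 (edgeR adjusted p 0.000109), and Enpa-I/R was also higher than sham (0.70 ± 0.15, edgeR adjusted p 0.00878). The rises in endocardial-like (1.31 ± 0.29), pericyte-like (1.04 ± 0.24) and smooth muscle-like nuclei (1.68 ± 0.35) passed as well (edgeR adjusted p 0.00703, 0.0048 and 0.0127). The endocardial-like call was lost without NS-Sham replicate 2 or NS-I/R replicate 2 (1.17 and 1.03) and with doublets kept (0.77, edgeR adjusted p 0.179), and the smooth muscle-like call without NS-Sham replicate 3 or NS-I/R replicate 2 (1.497 and 1.34), at edgeR adjusted p values of 0.0517 to 0.0735 without these libraries. In fibroblast-like nuclei Tlr4 was at 102, 112 and 97.1 CPM in NS-Sham and at 167, 177 and 81.9 CPM in NS-I/R, with overlap through NS-I/R replicate 3 and no call (0.45 ± 0.23, edgeR adjusted p 0.125). No class other than macrophage-like had a Tlr4 call between the injured groups.

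Because Tlr4 is so abundant in cardiomyocytes, its UMIs in other classes were set beside those of the 6 cardiomyocyte markers, all of which had UMIs in each class and group compared here. Per nucleus, endothelial-like nuclei held 1.74%, 1.20% and 1.32% of the cardiomyocyte-like level of the markers, in the order sham, saline-treated and enpatoran-treated injury, and 2.69%, 2.71% and 2.38% of that of Tlr4. In macrophage-like nuclei the marker percentages were 1.54%, 1.07% and 1.21%, and those of Tlr4 were 10.1%, 24.3% and 11.5%. In fibroblast-like nuclei they were 1.70%, 1.19% and 1.34% for the markers and 10.9%, 7.68% and 7.14% for Tlr4. For endocardial-like nuclei the marker percentages were 1.61%, 1.24% and 1.44% and those of Tlr4 5.83%, 6.34% and 6.097%, for pericyte-like 1.61%, 1.20% and 1.26% against 4.07%, 3.79% and 3.22%, and for smooth muscle-like 4.54%, 3.79% and 4.38% against 4.83%, 7.21% and 6.14%. In cardiomyocyte-like nuclei themselves the markers went from 598241 to 445265 UMIs per 1000 nuclei between NS-Sham and NS-I/R and Tlr4 from 3308 to 7198, so the markers were no fixed measure. The part of cardiomyocyte RNA in the Tlr4 levels of other classes was not tested. The summed markers in endothelial-like nuclei were at 4899 to 5283 CPM in NS-Sham and lower, at 2490 to 3063 CPM, in NS-I/R, where Tlr4 was higher. The summed neutrophil markers in endothelial-like nuclei were at 0.464 to 1.58 CPM in NS-Sham (5 of 6 with UMIs, S100a8 at 0), at 92.1 to 229.9 CPM in NS-I/R and at 42.6 to 59.4 CPM in Enpa-I/R (6 of 6). In NS-I/R these nuclei held 3.19% of the neutrophil-like level of the markers per nucleus and 27.6% of that of Tlr4, and the markers' part in the rise was not tested.

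**Figure D4:**
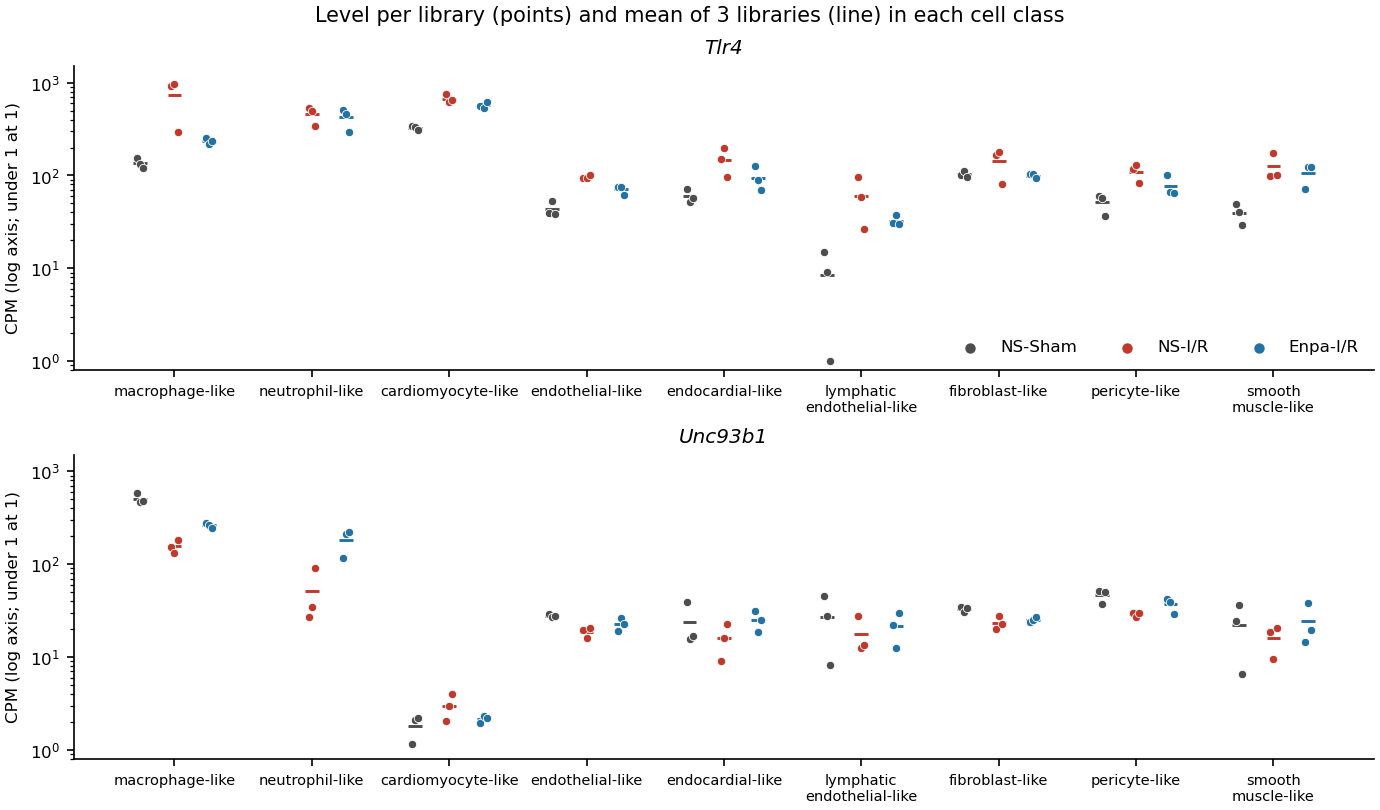
CPM of Tlr4 (top) and Unc93b1 (bottom) in 9 cell classes on a log axis, with 1 point per library and a line at the mean of 3 libraries. Neutrophil-like nuclei of NS-Sham are not drawn, and a value under 1 CPM is drawn at 1. The mean of Tlr4 is higher in NS-I/R than in NS-Sham in each class drawn for both, and that of Unc93b1 in macrophage-like nuclei goes from 507 to 156 CPM.

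Tlr3 fell in endothelial-like and fibroblast-like nuclei. In endothelial-like nuclei it was at 30.2, 31.3 and 31.3 CPM in NS-Sham, at 16.3, 15.7 and 20.6 CPM in NS-I/R and at 25.3, 26.8 and 19.7 CPM in Enpa-I/R. The NS-Sham and NS-I/R libraries did not overlap (-0.82 ± 0.19, edgeR adjusted p 0.00419). In fibroblast-like nuclei it fell from 14.0, 14.5 and 18.5 to 5.84, 7.33 and 7.68 CPM (-1.15 ± 0.22, edgeR adjusted p 0.00127). In Enpa-I/R it stood at 10.6, 12.6 and 11.5 CPM there, above every NS-I/R library, and that difference did not pass (0.72 ± 0.22, edgeR adjusted p 0.059). Endothelial-like nuclei held 39.7 ± 0.771% of all Tlr3 UMIs in NS-Sham hearts and 28.3 ± 0.542% after NS-I/R.

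Unc93b1 also fell in vessel and connective tissue classes, where the signalling genes Myd88 and Irak4 rose. Unc93b1 fell in endothelial-like nuclei, from 28.8, 27.3 and 28.0 to 19.7, 16.2 and 20.6 CPM (-0.57 ± 0.19, edgeR adjusted p 0.0287), and in fibroblast-like nuclei (-0.48 ± 0.16, edgeR adjusted p 0.0284). The summed 8 macrophage markers in endothelial-like nuclei stood at 192 to 249 CPM in NS-Sham and at 344 to 406 CPM in NS-I/R, with none at 0, and their part in the result was not tested. Myd88 rose in fibroblast-like nuclei from 7.39, 5.97 and 8.74 to 24.1, 19.7 and 12.03 CPM (1.37 ± 0.29, edgeR adjusted p 0.00227). It also rose in endothelial-like (1.20 ± 0.30, edgeR adjusted p 0.00697) and pericyte-like nuclei (1.69 ± 0.44, edgeR adjusted p 0.0107). Irak4 rose in endothelial-like (0.57 ± 0.16, edgeR adjusted p 0.0127) and fibroblast-like nuclei (0.60 ± 0.20, edgeR adjusted p 0.027), with the limit that both genes share their locus with other genes. Several of these calls depended on single libraries or on the processing. Unc93b1 lost its call in endothelial-like nuclei without any 1 NS-Sham library or NS-I/R replicate 1 or 2 (-0.60 to -0.47), and in fibroblast-like nuclei without NS-Sham replicate 1 or 3 or NS-I/R replicate 1 (-0.48 to -0.38). Both Unc93b1 calls were lost with DESeq2 (adjusted p 0.072 and 0.0647) and without the count filter, the endothelial-like one also with a mitochondrial limit of 2%, with at least 1000 genes per nucleus and with the heat-shock-led cluster counted as endothelial-like, and the fibroblast-like one in a fit of 6 libraries. Irak4 lost its call in fibroblast-like nuclei without any 1 NS-Sham library or NS-I/R replicate 2 (0.40 to 0.64) or with the 2% limit (0.46), and in endothelial-like nuclei without NS-I/R replicate 1 (0.44). Myd88 lost its call in pericyte-like nuclei without NS-Sham replicate 1 or 2 (1.42 and 1.402), and in endothelial-like nuclei with at least 1000 genes per nucleus.

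In NS-I/R against NS-Sham, 5 of 5 members tested in endothelial-like nuclei were called (3 higher, 2 lower, background 35.2%), 4 of 5 in fibroblast-like (2 higher, 2 lower, 46.6%) and 2 of 5 in pericyte-like nuclei (2 higher, 23.8%). The count was 1 of 4 in endocardial-like (10.9%) and 1 of 1 in smooth muscle-like (6.47%) and in lymphatic endothelial-like nuclei (13.7%) the member tested, Irak4, was not called (edgeR adjusted p 0.465). Over the 8 classes 21 of 35 member tests were called, 13 higher and 8 lower, against 31.1% of all gene tests. For Enpa-I/R against NS-I/R 3 of 35 were called, all in macrophage-like nuclei, against 7.57% of all gene tests, with 10 called when NS-I/R replicate 3 was left out and 1 without NS-I/R replicate 1 or Enpa-I/R replicate 1. Of the other 26 tests 0 were called in edgeR, with 7.1% of genes called in endothelial-like, 9.45% in fibroblast-like, 5.57% in pericyte-like, 0.438% in endocardial-like, 1.09% in lymphatic endothelial-like and 0% in smooth muscle-like nuclei. At an unadjusted p under 0.05 there were 8. That threshold was met by 3118 of 11829 genes in endothelial-like, 3947 of 13424 in fibroblast-like and 5092 of 13983 in cardiomyocyte-like nuclei. It was met by 2163 of 9376 in pericyte-like, 1213 of 7770 in endocardial-like, 759 of 5516 in lymphatic endothelial-like and 820 of 6970 in smooth muscle-like nuclei. Between Enpa-I/R and NS-Sham 7 of 35 were called, against 12.3%, and 4 without NS-Sham replicate 2 or Enpa-I/R replicate 3. Those were the macrophage-like and cardiomyocyte-like calls above and Tlr4 and Irak4 in endothelial-like nuclei (12.6% of genes). This Irak4 call was lost without NS-Sham replicate 2 or 3, without replicate 1 or 3 of Enpa-I/R and with a mitochondrial limit of 2% (0.58 to 0.64, edgeR adjusted p 0.0505 to 0.073). In the other classes 0 of 16 were called in edgeR, with 24.2% of genes called in fibroblast-like, 5.12% in pericyte-like, 0.811% in endocardial-like, 1.5% in lymphatic endothelial-like and 0.258% in smooth muscle-like nuclei. At an unadjusted p under 0.05 there were 7 of these 16. That threshold was met by 4861 of 13424 genes in fibroblast-like, 1672 of 9376 in pericyte-like and 892 of 7770 in endocardial-like nuclei. It was met by 726 of 5516 in lymphatic endothelial-like and 742 of 6970 in smooth muscle-like nuclei.

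**Figure D5:**
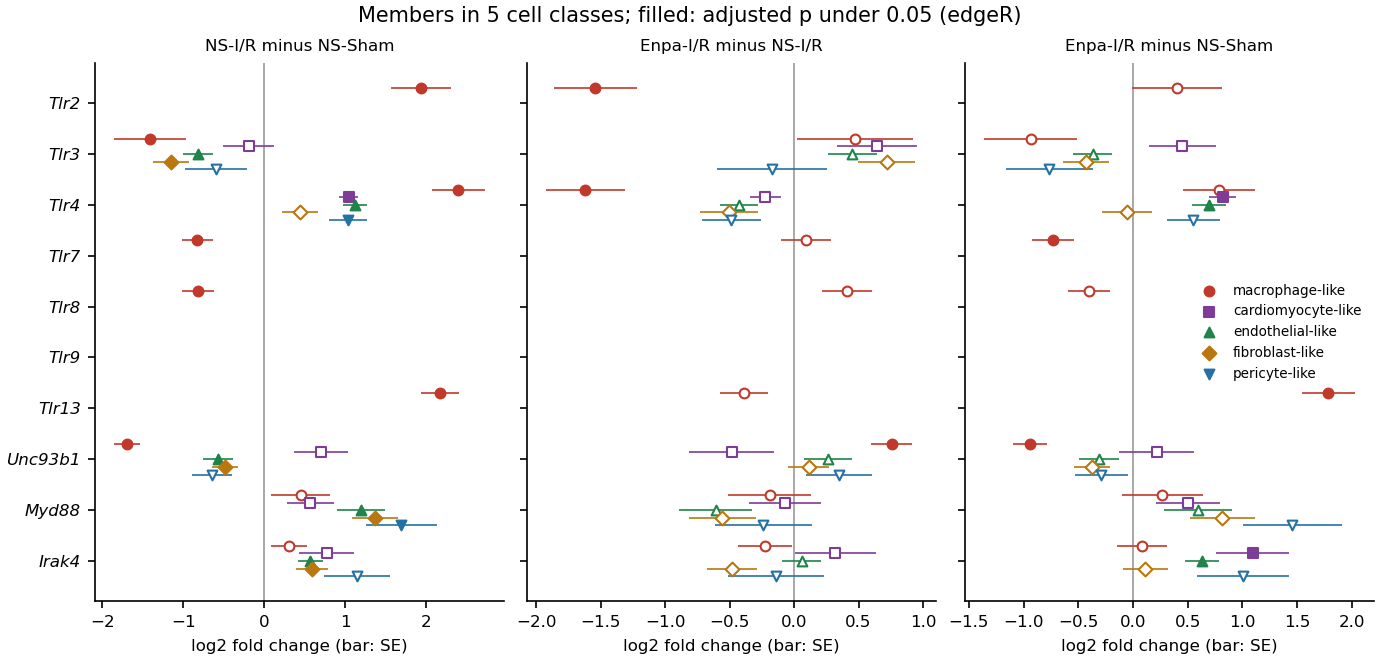
Log2 fold change (x axis, bar for the SE) of each member in 5 cell classes for the 3 comparisons, from edgeR. Filled symbols have an adjusted p under 0.05, and members below the count filter in a class are not drawn. Between the injured groups, filled symbols occur in macrophage-like nuclei only, for Tlr2, Tlr4 and Unc93b1.

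Whether a change differed between classes was tested as an interaction with the library as a block. The count filter was applied over all classes together, so the 63 member tests include members below the filter in the other class. In NS-I/R against NS-Sham, 10 of 63 member tests differed from macrophage-like nuclei, against 9.23% of all gene tests. Tlr3 in lymphatic endothelial-like (2.06 ± 0.63) and Tlr7 in fibroblast-like nuclei (2.02 ± 0.68) were called although below the filter in those classes. The Tlr4 difference was smaller than in macrophage-like nuclei in cardiomyocyte-like (log2 difference -1.31 ± 0.28), endothelial-like (-1.16 ± 0.31), fibroblast-like (-1.88 ± 0.29) and pericyte-like nuclei (-1.29 ± 0.34). The Unc93b1 difference was less negative than in macrophage-like nuclei in pericyte-like (1.05 ± 0.32), fibroblast-like (1.26 ± 0.26) and endothelial-like nuclei (1.11 ± 0.28). In cardiomyocyte-like nuclei it was positive (0.70, at mean levels of 1.83 and 3.04 CPM), a difference from macrophage-like nuclei of 2.28 ± 0.33. Between the injured groups 4 of 63 member tests differed, against 1.61% of all gene tests. The Tlr4 difference under enpatoran was less negative than in macrophage-like nuclei in cardiomyocyte-like (1.31 ± 0.27), endothelial-like (1.08 ± 0.29) and fibroblast-like nuclei (1.06 ± 0.27), and the Unc93b1 difference was lower in cardiomyocyte-like nuclei (-1.21 ± 0.32). Of 11 alternative settings, these lost their call in 1, 8, 5 and 3, in that order. Between Enpa-I/R and NS-Sham 2 of 63 differed, against 3.11%. With 1 library left out, the count after injury was 5 without NS-Sham replicate 2 or NS-I/R replicate 2. That between the injured groups was 7 without NS-I/R replicate 3, 0 without NS-I/R replicate 2, 1 without Enpa-I/R replicate 3, and it was 2 without NS-I/R replicate 1 or Enpa-I/R replicate 1 or 2. That against sham under enpatoran was 1 without NS-Sham replicate 2, and it was 0 without NS-Sham replicate 1 or any 1 Enpa-I/R library.

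Summed over all nuclei kept, 5 of the 9 members tested rose in NS-I/R and 2 fell. In such a sum, fewer cells of a type and less RNA per cell cannot be told apart. Tlr13 stood at 0.623 ± 0.282 CPM in NS-Sham hearts and at 8.74 ± 1.43 CPM after NS-I/R (log2 fold change 3.72 ± 0.35, edgeR adjusted p 3.62e-05) and Tlr2 at 1.30 ± 0.0421 and 6.80 ± 3.12 CPM (2.38 ± 0.35, edgeR adjusted p 0.000454). Of the Tlr13 UMIs, macrophage-like nuclei held 91.7 ± 8.33% in NS-Sham hearts (SD, n = 3), whose libraries had only 12, 24 and 4. After NS-I/R, with 181, 183 and 239 Tlr13 UMIs, they held 45.8 ± 7.39% and neutrophil-like nuclei held 34.9%. Tlr4, Myd88 and Irak4 also rose, and Tlr3 (-0.73 ± 0.16, edgeR adjusted p 0.00402) and Unc93b1 (-0.56 ± 0.20, edgeR adjusted p 0.0407) fell, so that 7 of 9 members were called among 47.8% of genes. Unc93b1 lost its call when NS-Sham replicate 1 or 2 was left out, or NS-I/R replicate 1 or 2 (-0.58 to -0.42, edgeR adjusted p 0.0777 to 0.149). For Enpa-I/R against NS-I/R Tlr2 alone was called, at 2.36 ± 0.653 CPM in Enpa-I/R (-1.53 ± 0.33, edgeR adjusted p 0.0191), among 16.5% of genes, with 5 calls when NS-I/R replicate 3 was left out and 0 without NS-I/R replicate 1 or Enpa-I/R replicate 1 or 3. Against NS-Sham, Tlr13, Tlr4, Myd88 and Irak4 were higher in Enpa-I/R, 4 of 9 members among 21.1% of genes, and 2 without NS-Sham replicate 2. Neutrophil-like nuclei were 8.85 ± 1.38% of nuclei after NS-I/R and 2.69 ± 1.94% after Enpa-I/R, and held 22.5% and 9.72% of the Tlr2 UMIs. Their part in the fall of Tlr2 was not tested.

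The rest of the pathway was followed through 58 genes in 8 lists. In macrophage-like nuclei 49 of them were tested in NS-I/R against NS-Sham, and 11 rose and 9 fell, where 34.7% of all genes were called, with a median log2 fold change of 0.24 against 0.03 over all genes tested. Among 3 other receptors of the family tested, Tlr6, the partner of TLR2, rose (1.30 ± 0.45) and Tlr5, the flagellin receptor, fell (-1.90 ± 0.25). Among 5 co-receptors and ligand carriers, Cd14, which passes lipopolysaccharide to TLR4, rose (1.60 ± 0.23), and Cd180 (-1.77 ± 0.20), its partner Ly86 (-1.70 ± 0.23) and the TLR4 partner Ly96 (-0.87 ± 0.32) fell. The TLR4 receptor and its carrier Cd14 were thus higher while Ly96 was lower.

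Of the genes that serve the endosomal receptors, Lrrc59 rose from 11.3 ± 0.665 to 44.0 ± 10.1 CPM (1.93 ± 0.30) and the lysosomal transporter Slc15a4 fell (-0.68 ± 0.21), among 5 chaperones and trafficking genes tested. The endosomal protease Ctsl rose from 18.7 ± 4.79 to 230 ± 27.9 CPM (3.60 ± 0.23, edgeR adjusted p 3.34e-08), the 1 call among 4 proteases. Among 3 adaptors, Tirap, which brings MYD88 to TLR2 and TLR4, rose (1.68 ± 0.38), and Ticam2 (-1.29 ± 0.39) and Pik3ap1 (-1.05 ± 0.20) fell. Among 14 kinases and ubiquitin ligases 4 rose, led by Ikbke (3.83 ± 0.55) with Irak1 (0.88 ± 0.23) and Ikbkg (0.98 ± 0.35), and 1 fell. Of 6 negative regulators, Nfkbia, an NF-kB target that holds NF-kB back, rose (2.15 ± 0.26) and Cyld fell (-0.84 ± 0.19), and of 9 transcription factors Rela rose (0.70 ± 0.24).

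Under enpatoran 3 of the 49 pathway genes were called in macrophage-like nuclei against NS-I/R, the same share as the 6.12% of all genes, with 16 called when NS-I/R replicate 3 was left out and 1 without NS-I/R replicate 2 or any 1 Enpa-I/R library. Tlr5 was higher (1.45 ± 0.24), at 53.8 ± 7.28 against 19.5 ± 4.99 CPM. Ctsl (-0.71 ± 0.17) and Nfkbia (-0.83 ± 0.23) were lower. Against NS-Sham 10 were higher and 3 lower in Enpa-I/R, where 17.4% of all genes were called, 8.85% higher and 8.56% lower. All 4 endosomal proteases tested were among the higher ones. These 13 calls became 7 without NS-Sham replicate 2 or 3, and likewise without replicate 2 or 3 of Enpa-I/R. In cardiomyocyte-like nuclei 18 of 44 pathway genes rose and 0 fell in NS-I/R against NS-Sham. There 45.3% of all genes were called, 23.7% higher and 21.7% lower. In Enpa-I/R against NS-I/R 0 rose and 10 fell, where 18.9% of all genes were called, 7.62% higher and 11.3% lower. Lrrc59 (-1.03 ± 0.18), Tbk1 (-1.02 ± 0.22) and Relb (-1.17 ± 0.25) were among those that fell. In NS-I/R against NS-Sham 19 rose and 4 fell of 46 in endothelial-like nuclei (35.2% of all genes called, 18.1% higher and 17% lower). The counts were 18 and 4 of 46 in fibroblast-like (46.6%, 23.3% higher and 23.3% lower), and 13 and 0 of 39 in pericyte-like nuclei (23.8%, 12.1% higher and 11.8% lower).

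Genes whose levels ran most like those of the members were ranked by Pearson's r of log2(CPM + 1) over 72 sums of class by library, which share libraries and depth. For Tlr7 they were Slamf7 (r 0.938), Epsti1 (0.933), Sash3 (0.928), Ly86 (0.928) and Nlrp1b (0.925). For Tlr8 they were Fcna, Rab39, Sash3, Ticam2 and Vsig4 (0.943 to 0.941), and for Tlr13 Vav1, Ccr1, Psd4, Cd84 and Mir142hg (0.922 to 0.897). Tlr2 ran most like Bcl2a1b (0.875), Unc93b1 most like Pip4k2a (0.922) and Irak4 most like Cmip (0.922). Tlr3 ran most like Lgals9, Parp12, Gbp7, Slfn5 and Xaf1 (0.851 to 0.827), and Tlr4 most like Glul (0.852) and Tkt (0.822). The highest value for Myd88 was 0.762, with Dhx29.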

How the data were processed

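The 9 deposited matrices hold raw UMI counts per gene and barcode, made by the authors with Cell Ranger. The file headers name version 8.0.0, whereas the submitters' processing notes name 6.1.1 with the builds GRCh38 and GRCm39. Nuclei with at least 500 genes and at most 5% mitochondrial counts were kept. Scrublet marked 0 nuclei in 5 libraries, so the highest-scoring barcodes, 0.8% per 1000 barcodes, were removed. Clustering (scanpy 1.11.5, Leiden in its igraph form) used 2000 variable genes, 30 components, 15 neighbours and resolution 1. It left out the members, the pathway genes, Itgam, Itgb2 and the mitochondrial genes. The sex-linked genes Xist, Tsix, Ddx3y, Uty, Eif2s3y and Kdm5d were left out too. A cluster was named where at least 3 markers were detected and its score led by 1. Classes with at least 25 nuclei in each library were summed per library. Sums were tested with edgeR 4.0.16 (R 4.3.3; genes kept by filterByExpr, TMM scaling, quasi-likelihood test, p adjusted by Benjamini-Hochberg over all genes of a class and comparison, threshold 0.05) in 1 fit of 9 libraries without covariates. Each SE is the absolute log2 fold change divided by the root of its F value. The sign-flip test and the likeness used CPM + 1 without TMM. Shares were compared by exact permutation. Counting error limits the precision at low CPM. On simulated counts for macrophage-like nuclei, 44% of genes changed by 1 and 90% of genes changed by 2 in log2 were recovered. The values were 38% and 89% for cardiomyocyte-like nuclei, and 22% and 79% for a difference between endothelial-like and macrophage-like nuclei. Only 100 genes were changed at each size, among 10426 in macrophage-like nuclei, where the real NS-I/R against NS-Sham comparison called 34.7%. The recovery in the real data can therefore differ.

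Members, lists and markers were chosen with earlier results of these data known. From the pathway lists the text names, per class and comparison, at most 3 called genes per list with the largest change and at least 10 CPM in a group. Likeness names up to 5 genes per member. Of 32285 gene IDs, 99.6% were in the GRCm38 annotation. Same-numbered libraries correlated at -0.141 to 0.0535 in their deviations from group means, so replicate numbers were not treated as pairs. Alternatives were other size factors, DESeq2 1.42.0, no count filter, a replicate block, fits of 6 libraries, other limits on nuclei, doublets kept, another resolution, single clusters and each library left out. Counting the heat-shock-led cluster as endothelial-like was added after seeing the data.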

Additional observations from a re-analysis of the deposited data

Results flagged for a closer look

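Each result here is a change that differed between another class and macrophage-like nuclei by a test of the difference itself (edgeR interaction, library as a block, 8 classes). In NS-I/R against NS-Sham the Tlr4 change differed by -1.31 in cardiomyocyte-like (adjusted p 0.000398), -1.16 in endothelial-like (0.00731), -1.88 in fibroblast-like (1.85e-06) and -1.29 in pericyte-like nuclei (0.00805), in log2. The Unc93b1 change differed by 2.28 in cardiomyocyte-like (adjusted p 2.23e-07), 1.11 in endothelial-like (0.00494), 1.26 in fibroblast-like (0.00034) and 1.05 in pericyte-like nuclei (0.0261). Tlr3 differed by 2.06 in lymphatic endothelial-like (adjusted p 0.0434) and Tlr7 by 2.02 in fibroblast-like nuclei (0.04), 2 genes below the count filter in those classes. Tlr3 lost that call in 6 of 11 alternatives and Tlr7 in 9 of 11, the latter at means of 0.667 and 1.44 CPM without TMM scaling. Tlr4 lost its call in 3 of 11 in endothelial-like and 2 of 11 in pericyte-like nuclei, and Unc93b1 in 5 of 11 in pericyte-like nuclei.

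In Enpa-I/R against NS-I/R the Tlr4 change differed by 1.31 in cardiomyocyte-like (adjusted p 0.000877), 1.08 in endothelial-like (0.0389) and 1.06 in fibroblast-like nuclei (0.0308), and the Unc93b1 change by -1.21 in cardiomyocyte-like nuclei (0.0137). Calls between the injured groups were lost in 1, 8, 5 and 3 of 11 alternatives, in that order. In Enpa-I/R against NS-Sham, Tlr3 differed by 1.41 (adjusted p 0.0322) and Unc93b1 by 1.08 (0.0392), both in cardiomyocyte-like nuclei. These calls were lost in 6 of 11 alternatives for Tlr3 and in 5 of 11 for Unc93b1.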

How the results depend on the processing

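Of 994 values of 60 single results under alternatives, 857 kept direction and side of the threshold, 133 lost the call and 4 turned. Tlr7 in macrophage-like nuclei between the injured groups turned without NS-I/R replicate 3 (-0.036; 0.20 at most with another library left out), with a mitochondrial limit of 2% (-0.050) and in the resident-like cluster alone (-0.25), and was called in none of these. Tlr3 in macrophage-like nuclei in NS-I/R against NS-Sham turned in the resident-like cluster alone (0.066). The cause was not tested.

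With each library left out in turn, members called in macrophage-like nuclei numbered 6 to 7 in NS-I/R against NS-Sham (7 with all), 1 to 3 in Enpa-I/R against NS-I/R (3) and 2 to 4 in Enpa-I/R against NS-Sham (3). Over 8 classes they numbered 16 to 24 (21), 1 to 10 (3) and 4 to 10 (7). Over all nuclei they numbered 6 to 7 (7), 0 to 5 (1) and 2 to 4 (4). Pathway genes in macrophage-like nuclei numbered 15 to 25 (20), 1 to 16 (3) and 7 to 14 (13), differences between classes 5 to 11 (10), 0 to 7 (4) and 0 to 3 (2), and pairs higher in macrophage-like nuclei 52 to 55 (55), with 50 to 53 (50) higher in every library. Differences in the thinned share of macrophage-like nuclei ranged, in percentage points and in the same order of comparisons, from -6.19 to -2.17, 0.75 to 2.24 and -4.50 to -0.488 for Tlr7, from 19.9 to 32.8, -26.7 to -13.9 and 4.91 to 7.29 for Tlr4, and from -21.9 to -17.7, 7.96 to 11.4 and -12.2 to -8.04 for Unc93b1. Leaving out a library that leaves 2 in a group used the same pooled fit.

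Counts that moved by over 1.5 times, and share differences that moved by more than the SD between libraries, were as follows. The resident-like cluster alone gave 3 members in NS-I/R against NS-Sham and 1 in Enpa-I/R against NS-I/R, and 7 pathway genes in Enpa-I/R against NS-Sham, and the infiltrating-like cluster alone gave 0 members and 0 pathway genes between the injured groups, with fewer nuclei. Over all nuclei between the injured groups, DESeq2 gave 4 members, 6 libraries 0 and at least 1000 genes per nucleus 2. Without the count filter there were 9 pathway genes between the injured groups, 11 members over 8 classes in Enpa-I/R against NS-Sham, and 7 and 1 differences between classes in Enpa-I/R against NS-I/R and NS-Sham. Keeping doublets gave 5 pathway genes between the injured groups, and the mitochondrial limit of 2% gave 8 in Enpa-I/R against NS-Sham. Without thinning the share differences were -10.2, 3.77 and -6.46 points for Tlr7, 11.4 for Tlr4 in Enpa-I/R against NS-Sham, and -32.0, 17.2 and -14.8 for Unc93b1. Thinning to 500 UMIs gave -15.8 and 4.55 for Unc93b1 in NS-I/R against NS-Sham and Enpa-I/R against NS-I/R. At 500 UMIs, Tlr7 between the injured groups (0.41 against 1.69), Tlr4 between them (-11.6 against -18.3) and Tlr7 in Enpa-I/R against NS-Sham (-4.60 against -3.03) moved by over 1.5 times but within that SD.

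Replicate numbers did not pair the libraries. A fit with the replicate number as a block gave 7 members in macrophage-like nuclei, 21 over 8 classes and 6 over all nuclei in NS-I/R against NS-Sham, and the call lost was Unc93b1 over all nuclei (-0.55, edgeR adjusted p 0.073).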

Other observations

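B-like and T and NK-like nuclei were too few for a test and are given as counts. B-like nuclei held Unc93b1 at 533, 489 and 617 UMIs per 1000 nuclei, in the order sham, saline-treated and enpatoran-treated injury, over 105, 90 and 60 nuclei. Tlr7 was there at 105, 133 and 117 UMIs per 1000 nuclei, from 11, 12 and 7 UMIs. Tlr13 had 12 UMIs in 91 T and NK-like nuclei of NS-I/R, or 132 per 1000 nuclei.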
